A study of Rattus norvegicus with 14 samples.

Results

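The data describe how the effect of JQ1 on the transcripts of cultured rat aortic smooth muscle cells differed between 2 h and 24 h of platelet-derived growth factor (PDGF). The quantity is an interaction: the difference between JQ1 plus PDGF and PDGF alone at 24 h, minus the same difference at 2 h. It uses 12 of the 14 libraries, in 4 groups of 3, and 10133 of 17312 genes passed the filter on low values and were tested. All cells came from a commercial supplier (Lonza) and were held without serum for 24 h. The first and second groups then received PDGF at 925 ng/ml for 2 h or 24 h. The other two groups received JQ1 at 500 nM for 3 h before the same PDGF, also for 2 h or 24 h. The labels do not say whether JQ1 stayed in the medium during PDGF, so the 2 groups with JQ1 also differ in total time since JQ1 was added. None of the 14 libraries had JQ1 alone or was unstimulated at 2 h or 24 h, and all 4 groups share serum withdrawal and PDGF. The labels do not say that replicates were separate cultures, so p-values measure only the spread between these libraries, which may be technical. Sample titles carry the letters A to D without JQ1 and E to H with JQ1, and whatever these letters mark cannot be told apart from JQ1.

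JQ1 is a small molecule that occupies the acetyl-lysine pocket of the BET bromodomain proteins and so displaces them from acetylated chromatin. BET proteins help recruit P-TEFb, the kinase complex that releases paused RNA polymerase II, and genes with strongly acetylated enhancers are known to be sensitive to their loss. PDGF is a mitogen and chemoattractant of smooth muscle, which first induces immediate early genes, then cell cycle genes, while contractile genes decline. A transcript's level also depends on its half-life, and the direct and later consequences of an inhibitor are not separated in a steady-state measurement such as this one.

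Levels are given as the authors' normalised FPKM (fragments scaled by transcript length and by library, then normalised), in the order of the column digits 0, 1 and 2. The normalisation method is not given, and its use of the spike-in transcripts was read from the values. This normalised scale is called the spike-in scale below. Differences are on the log2(normalised FPKM + 1) scale, which understates the change of low genes, with the SE of the limma fit. A gene was called at a Benjamini-Hochberg adjusted p under 0.05 over all genes tested. The number of reads is unknown, and 9901 to 11503 genes were above 0 in a library. PDGF 2 h replicate 1 had the fewest genes above 0. The spike-ins took 2.08 ± 0.24% of the unnormalised FPKM with PDGF at 2 h and 2.38 ± 0.081% with JQ1 plus PDGF at 2 h (SD, n = 3). At 24 h their share was 1.80 ± 0.13% with PDGF and 2.45 ± 0.21% with JQ1 plus PDGF (SD, n = 3). On this scale the median JQ1 difference of the tested genes was -0.29 at 2 h and -0.48 at 24 h, and the median interaction was -0.22. The spike-in dose was set in proportion to the RNA from a constant cell number. Whether the dose in effect followed the cell number or the amount of RNA is not clear from this. A dose that followed the RNA would not record a change in its amount. Whether cell numbers were equal between the groups was not tested either, so fewer cells, less RNA per cell and the dose itself cannot be told apart. What the shared shift means for RNA content was also not tested. A second, median-centred scale (unnormalised FPKM divided by size factors) removes that shift, and there the median interaction was -0.03 over 9980 genes.

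Hexim1, which encodes the inhibitory partner of P-TEFb and is a known marker of BET inhibition, checks the labels. Its level was 18.3, 27.2 and 22.7 normalised FPKM with PDGF at 2 h and 92.8, 99.4 and 103 with JQ1 plus PDGF at 2 h. At 24 h Hexim1 was 65.5, 55.0 and 56.9 with PDGF and 189, 164 and 162 with JQ1 plus PDGF. The groups with and without JQ1 did not overlap at either time. The Hexim1 difference was 2.08 ± 0.13 at 2 h and 1.52 ± 0.13 at 24 h, and the interaction of -0.56 ± 0.19 (limma, adjusted p = 0.043) was not called on the median-centred scale (-0.38, limma adjusted p = 0.066). The interaction call held in only 6 of 20 alternative settings. It was lost without any PDGF 24 h replicate, PDGF 2 h replicate 0 or 2, or replicate 1 or 2 of JQ1 plus PDGF at either time.

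The smooth muscle markers Acta2 (69.3 to 7048 normalised FPKM), Tagln (230.5 to 6807), Myl9 (35.55 to 1251), Smtn (17.23 to 58.77) and Cnn1 (5.216 to 796.5) were present in every library. Lmod1 ranged from 0.593 to 53.87. Myh11, the smooth muscle myosin heavy chain and the most restricted marker of the list, was low throughout, between 0.203 and 6.53 normalised FPKM. Among markers of other cells, the endothelial genes Cdh5, Emcn and Cldn5 and the leukocyte genes Ptprc, Aif1, Cd3e, Cd79b and C1qa were listed at 0 in every group. The 12 endothelial markers still summed to as much as 141.1 unnormalised FPKM (PDGF at 2 h), and the 10 leukocyte markers to 53.05 (PDGF at 24 h).

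The interaction was called in 2259 genes. Of these, 488 were higher (4.82% of all tested), meaning that the JQ1 difference was more positive at 24 h than at 2 h, and 1771 were lower (17.5%). On the median-centred scale 1343 genes were higher (13.5% of 9980) and 1637 lower (16.4%), so the excess of lower over higher calls was mostly absent there. With the same sign on both scales, 487 genes were higher (4.81%) and 1518 lower (15%). These shared genes were 88.8% of the calls on the spike-in scale and 67.3% of those on the median-centred scale. For JQ1 itself, 734 genes were higher (7.24%) and 3449 lower (34%) at 2 h, against 467 higher (4.61%) and 4918 lower (48.5%) at 24 h.

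**Figure D1:**
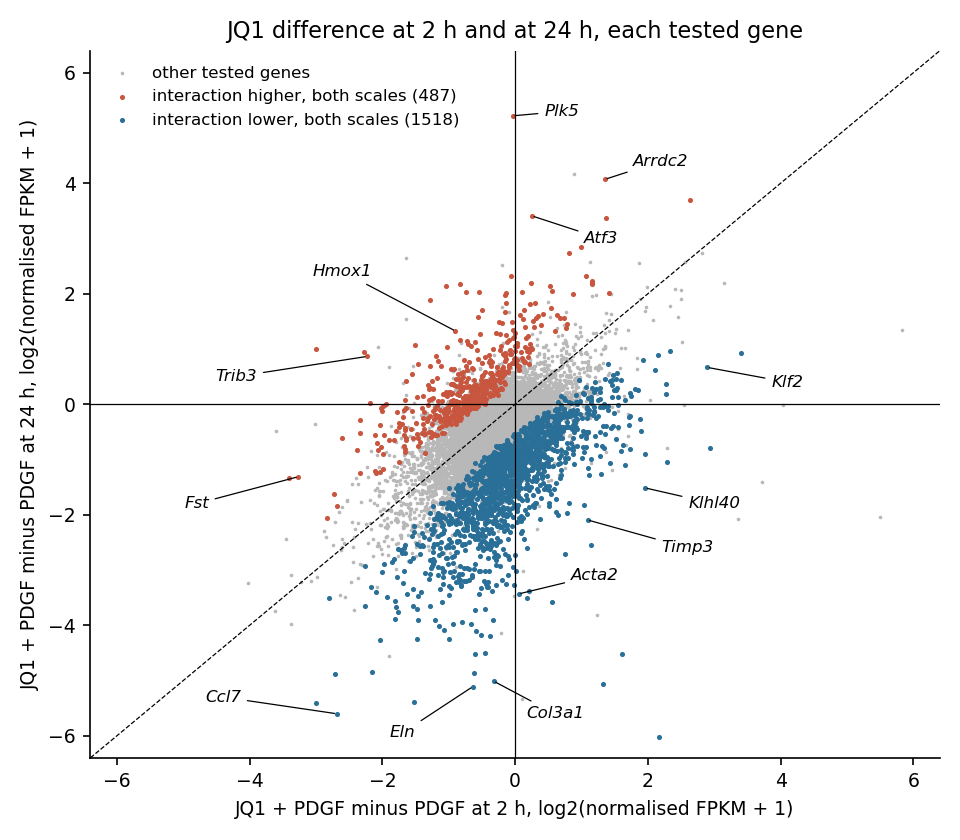
Each point is 1 tested gene, with the JQ1 difference at 2 h on the x axis and at 24 h on the y axis (both log2 of normalised FPKM + 1); the dashed line marks equal differences, and colour marks interactions called with the same sign on both scales. The 1518 lower genes lie below the dashed line and include Col3a1 and Eln near -5 at 24 h, whereas the 487 higher genes lie above it and include Plk5 (5.22 at 24 h).

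The largest group of called interactions consisted of late decreases. In 921 genes JQ1 gave no call at 2 h and lower levels at 24 h, and in another 511 genes the level was lower at both times and more so at 24 h. A further 195 genes were higher with JQ1 at 2 h and not called at 24 h. Among positive interactions, 236 genes were lower at 2 h and not called at 24 h, 118 were not called at 2 h and higher at 24 h, and 48 were lower at both times but less so at 24 h. Of these classes, 777, 446, 160, 235, 118 and 48 genes in the same order had the same interaction call on the median-centred scale. That count covers the interaction only, and the calls at 2 h and 24 h that define these classes were not compared on that scale. Opposite calls at the 2 times, with a called interaction, were found in 164 genes (1.62%), of which 58 (0.572%) had them on both scales.

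Extracellular matrix genes showed a late decrease. Of 31 tested matrix genes, 22 had a lower interaction, all of them on both scales, against 17.5% among all genes. By limma 0 had a higher one (0 also at an unadjusted p under 0.05), while the median-centred scale gave 24 lower and 2 higher. The list's median interaction was -1.43 (-1.25 on the median-centred scale). At 2 h 13 of the 31 were lower with JQ1 (34% of all genes) and 0 higher, and at 24 h 27 were lower (48.5% of all genes) and 1 higher. The median JQ1 difference went from -0.32 to -1.99.

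Col3a1 encodes the chain of type III collagen, a fibrillar collagen of the arterial wall. It stood at 626, 676 and 885 normalised FPKM with PDGF at 2 h and at 529, 612 and 594 with JQ1 plus PDGF at 2 h. At 24 h Col3a1 stood at 1194, 1337 and 1131 with PDGF and at 37.6, 35.3 and 37.3 with JQ1 plus PDGF. The ranges nearly touched at 2 h and were far apart at 24 h. The difference was -0.32 ± 0.13 at 2 h, which was not called, and -5.01 ± 0.13 at 24 h, with an interaction of -4.69 ± 0.18 (limma, adjusted p = 3.73e-10).

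Eln, which encodes elastin, the elastic protein of the arterial media, was at 9349, 8549 and 11965 normalised FPKM with PDGF at 2 h and at 6070, 6547 and 6348 with JQ1 as well. At 24 h Eln was at 2433, 2380 and 2384 with PDGF and at 83.3, 49.1 and 77.7 with JQ1 plus PDGF. Elastin transcripts were thus lower with JQ1 at both times, without overlap, with differences of -0.64 ± 0.18 at 2 h and -5.11 ± 0.18 at 24 h (interaction -4.47 ± 0.25). Lox, the enzyme that cross-links elastin and collagen, had an interaction of -4.25 ± 0.22. Lum, a small proteoglycan that binds collagen fibrils, had one of -4.05 ± 0.17. Mgp, which encodes matrix Gla protein, an inhibitor of vascular calcification, was higher at the later time with PDGF, going from 1142, 1210 and 1486 normalised FPKM at 2 h to 16265, 14115 and 14580 at 24 h. With JQ1 it was 1154, 1061 and 1126 at 2 h and only 1754, 1713 and 1472 at 24 h. Its interaction was -3.00 ± 0.18 and it was not called at 2 h.

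Other matrix genes had smaller interactions. Spp1, which encodes osteopontin, had one of -0.88 ± 0.25, and this call was lost without PDGF 2 h replicate 0, without both PDGF 2 h replicate 1 and PDGF 24 h replicate 0, and with no filter on low values. Thbs1, the thrombospondin 1 gene, was lower with JQ1 at both times (-0.79 ± 0.19 and -1.48 ± 0.19), and its interaction of -0.69 ± 0.27 was not called (limma, adjusted p = 0.080). On the median-centred scale it was called (-0.56, limma adjusted p = 0.021), as it was without PDGF 2 h replicate 2 (-0.92, limma adjusted p = 0.011).

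Markers of adventitial fibroblasts moved with the matrix genes. The 9 markers summed to 208.1 to 245 unnormalised FPKM with PDGF at 2 h, 209.9 to 222.9 with JQ1 plus PDGF at 2 h, 193.2 to 210.1 with PDGF at 24 h and 47.65 to 54.65 with JQ1 plus PDGF at 24 h. Of the 4 that were tested, 3 had a lower interaction (Lum, which is also in the matrix list, Pdgfra and Thy1), while the fibroblast markers Dpt and Ly6c were listed at 0 in every group. The part of such cells in the matrix result was not tested.

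Matrix proteases and their inhibitors were mixed. Of 20 tested, 10 had a lower and 3 a higher interaction on both scales, against 17.5% and 4.82% of all tested genes, with a median of -0.62. Mmp2, the gelatinase that smooth muscle cells express at rest, was at 180, 201 and 252 normalised FPKM with PDGF at 2 h and at 145, 162 and 176 with JQ1. At 24 h Mmp2 was at 423, 382 and 375 with PDGF and at 22.1, 19.2 and 20.0 with JQ1. The gap at 2 h was small and the one at 24 h was not, and the interaction was -3.82 ± 0.18. Mmp23, a membrane-anchored metalloproteinase, had an interaction of -3.50 ± 0.18. Timp3, a matrix-bound inhibitor of these enzymes, changed sign and is described with the sign changes.

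Contractile and cytoskeletal genes also fell late. Of 32 tested, 20 had a lower interaction (19 on both scales), against 17.5% among all genes, and 0 a higher one by limma (0 at an unadjusted p under 0.05, 1 on the median-centred scale). The median interaction was -1.04 (-0.87 on the median-centred scale). At 2 h 2 were higher with JQ1 and 14 lower, and at 24 h 0 were higher and 30 lower, against 34% lower at 2 h and 48.5% at 24 h among all genes.

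Acta2, smooth muscle alpha-actin, shows the timing. It was at 5726, 5262 and 7048 normalised FPKM with PDGF at 2 h and at 5981, 6326 and 6289 with JQ1 plus PDGF, and these ranges overlapped. At 24 h Acta2 was at 967, 1020 and 850 with PDGF and at 110, 69.3 and 84.6 with JQ1 plus PDGF. The change from 2 h to 24 h, in which PDGF and time in culture cannot be told apart, was -2.66 ± 0.16 with PDGF and -6.15 ± 0.16 with JQ1 plus PDGF, and the difference between the 2 time changes is the interaction, -3.49 ± 0.23 (limma, adjusted p = 6.58e-08). Cnn1, calponin, had an interaction of -2.24 ± 0.24. Lmod1, leiomodin, which nucleates actin filaments, had one of -2.10 ± 0.23, and Itga8, an integrin chain of contractile smooth muscle, one of -2.47 ± 0.20.

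Tagln, which encodes the actin-binding protein SM22, was higher with JQ1 at 2 h and lower at 24 h. Its level was 4642, 4103 and 5568 normalised FPKM with PDGF and 6352, 6704 and 6807 with JQ1 plus PDGF at 2 h. At 24 h Tagln was 797, 829 and 771 with PDGF and 339, 230 and 272 with JQ1 plus PDGF. The ranges did not overlap at either time, and the difference went from 0.48 ± 0.15 to -1.52 ± 0.15. Myh11 had lower levels with JQ1 at both times, and its interaction of -0.37 ± 0.33 was not called.

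Of 30 genes of G2/M and mitosis, 15 had a lower interaction (14 on both scales), against 17.5% of all tested genes, and 0 a higher one by limma, also at an unadjusted p under 0.05. With a pseudocount of 0.1 in place of 1, 24 were lower. At 2 h 19 of the 30 were lower with JQ1, against 34% of all genes, and at 24 h 29, against 48.5%. The list's median interaction was -1.04 (-0.91 on the median-centred scale). Kif20a, a kinesin needed for cytokinesis, was at 22.1, 26.5 and 21.2 normalised FPKM with PDGF and at 15.3, 18.2 and 17.8 with JQ1 plus PDGF at 2 h. At 24 h Kif20a was at 19.6, 18.3 and 20.1 with PDGF and at 3.00, 2.38 and 2.18 with JQ1 plus PDGF. The Kif20a groups did not overlap at either time, and the interaction was -2.11 ± 0.21. Birc5, which encodes survivin, and Ccna2, cyclin A2, had interactions of -2.10 ± 0.24 and -1.92 ± 0.28.

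Of 33 genes of G1/S and DNA replication, 8 had a lower and 2 a higher interaction, on both scales, near the 17.5% and 4.82% of all tested genes. The median interaction was -0.30 (-0.10 on the median-centred scale), close to that of all genes. The called member with the largest interaction was Rrm2. Rrm2, the regulated subunit of ribonucleotide reductase, was at 38.4, 44.2 and 43.7 normalised FPKM with PDGF and at 44.0, 42.8 and 37.4 with JQ1 plus PDGF at 2 h. At 24 h Rrm2 was at 19.0, 15.4 and 16.3 with PDGF and at 0.962, 0.116 and 1.85 with JQ1. The ranges overlapped at 2 h and not at 24 h, and the interaction was -3.25 ± 0.34. Tk1, thymidine kinase, and Tyms, thymidylate synthase, had interactions of -2.49 ± 0.21 and -1.66 ± 0.24. Ccnd1, cyclin D1, which couples growth factors to the cell cycle, was lower at both times (-1.0 ± 0.12 and -1.78 ± 0.12), with an interaction of -0.78 ± 0.17.

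**Figure D2:**
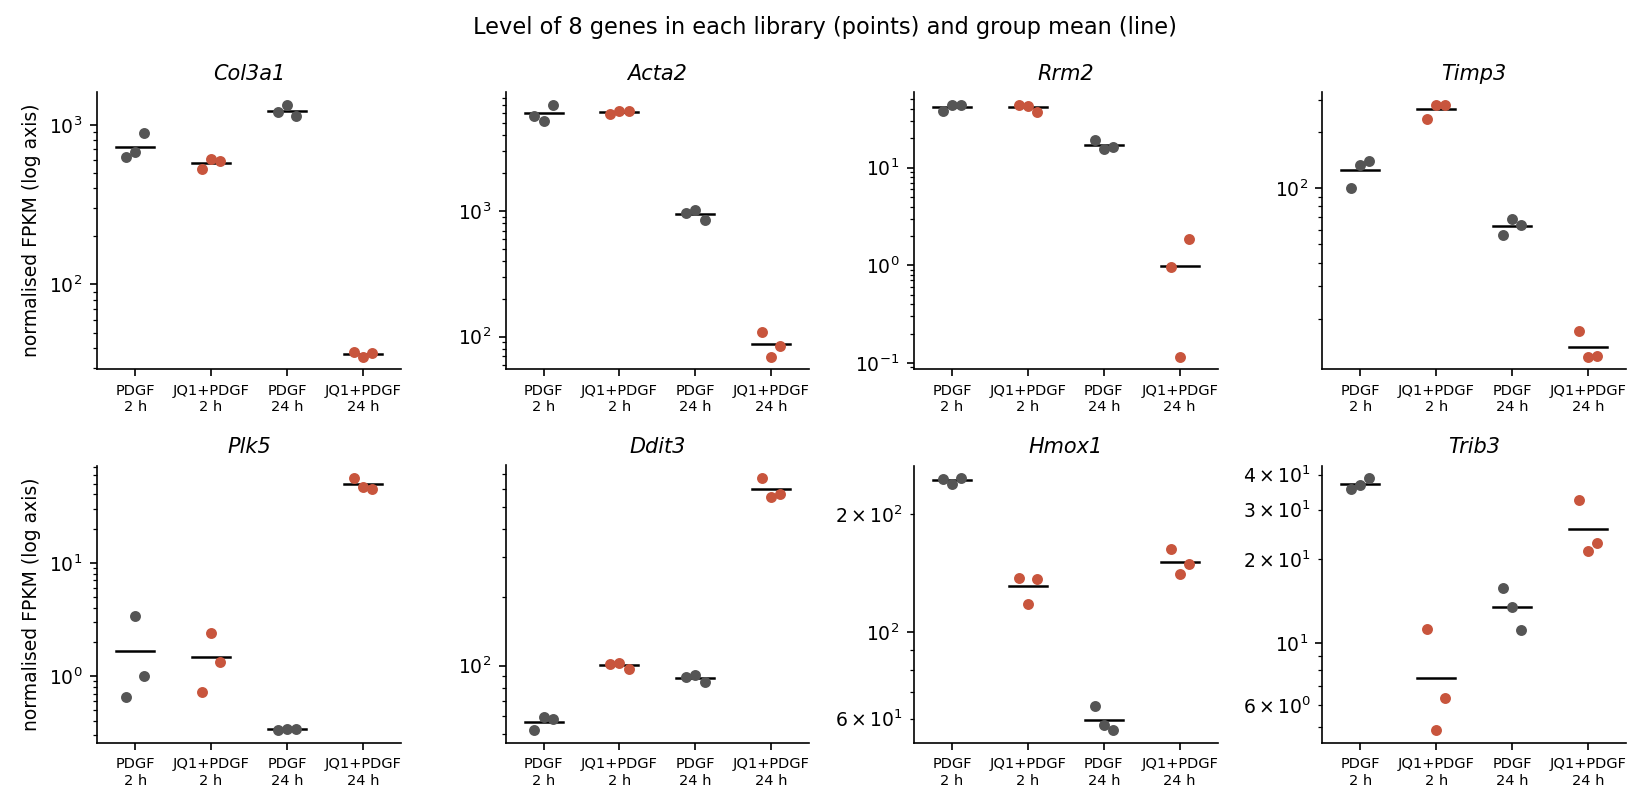
Normalised FPKM (log axis) of 8 genes in each of the 12 libraries, with points for libraries, lines for group means, and red for JQ1 plus PDGF. Col3a1, Acta2 and Rrm2 were close or overlapped at 2 h and lay far below their controls with JQ1 at 24 h, Plk5 and Ddit3 were highest with JQ1 at 24 h, and Timp3, Hmox1 and Trib3 changed the order of the groups between the times.

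Of 17 CDK inhibitors and p53 targets, 9 were higher and 3 lower with JQ1 at 2 h, against 7.24% higher among all genes. At 24 h 2 were higher and 8 lower, the latter near the 48.5% of all genes, and the median-centred scale gave 6 higher and 7 lower. The interaction was lower in 11 and higher in 1, on both scales, against 4.82% higher and 17.5% lower among all genes, with a median of -1.26 (-1.09 on the median-centred scale). Gadd45g, a stress-induced growth arrest gene, was at 19.8, 34.7 and 20.8 normalised FPKM with PDGF and at 82.5, 70.4 and 75.0 with JQ1 plus PDGF at 2 h. At 24 h Gadd45g was at 2.90, 4.98 and 3.39 with PDGF and at 2.11, 1.04 and 1.74 with JQ1 plus PDGF. JQ1 thus put Gadd45g above its control at 2 h and below it at 24 h, without overlap, with an interaction of -2.45 ± 0.33. Sesn1, a p53 target of the sestrin family, was higher at 2 h (1.52 ± 0.26), and its difference of -0.62 ± 0.26 at 24 h was not called (interaction -2.14 ± 0.37). Cdkn2a, the locus of the INK4a and ARF inhibitors, was not called at 2 h and was lower at 24 h (interaction -1.88 ± 0.27).

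Among 39 growth factor ligands and receptors, 16 had a lower interaction (15 on both scales) and 4 a higher one, against 17.5% and 4.82% of all tested genes. The median interaction was -0.70 (-0.47 on the median-centred scale). Fgfr1, a receptor of fibroblast growth factors, was at 26.3, 32.2 and 33.5 normalised FPKM with PDGF and at 39.9, 42.3 and 42.9 with JQ1 plus PDGF at 2 h. It was at 32.1, 27.5 and 32.1 with PDGF and at 11.2, 9.81 and 8.93 with JQ1 plus PDGF at 24 h. Fgfr1 was thus higher with JQ1 at 2 h and lower at 24 h, without overlap, and the interaction was -1.97 ± 0.18. Pdgfra, the alpha receptor of PDGF, was lower at both times and more so at 24 h (interaction -1.79 ± 0.29).

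The ligand gene Pdgfb went the other way. It was at 40.5, 52.9 and 69.9 normalised FPKM with PDGF and at 17.6, 20.6 and 14.3 with JQ1 plus PDGF at 2 h. At 24 h Pdgfb was at 11, 7.91 and 8.50 with PDGF and at 16.0, 11.4 and 14 with JQ1 plus PDGF. JQ1 lowered it at 2 h, and at 24 h the group with JQ1 lay just above its control (0.54 ± 0.21), with an interaction of 2.10 ± 0.29. Fst, which encodes the activin antagonist follistatin, was lower with JQ1 at both times (-3.27 ± 0.25 at 2 h and -1.31 ± 0.25 at 24 h), so that its interaction was positive (1.96 ± 0.35).

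Of 25 inflammatory mediators, 9 had a higher and 8 a lower interaction on both scales, against 4.82% and 17.5% of all tested genes, with a median of 0.51 (0.69 on the median-centred scale). At 2 h 15 were lower with JQ1 and 1 higher (34% lower among all genes), and at 24 h 14 were lower and 5 higher, the 14 near the 48.5% of all genes. The highest interaction of the list was that of Cxcl1, a neutrophil chemokine, at 3.22 ± 0.74 (limma, adjusted p = 0.0055). Cxcl1 was at 7.53, 11.7 and 18.2 normalised FPKM with PDGF and at 0.0674, 5.49 and 1.66 with JQ1 plus PDGF at 2 h. At 24 h Cxcl1 was at 0.207, 1.83 and 1.48 with PDGF and at 1.64, 4.53 and 3.12 with JQ1 plus PDGF, where the ranges overlapped. In the unnormalised table Cxcl1 was listed at 0 in JQ1 plus PDGF 2 h replicate 0 and PDGF 24 h replicate 0. On the lower side, Ccl7, a monocyte chemokine, was at 412, 455 and 404 normalised FPKM with PDGF and at 82.6, 50.3 and 65.1 with JQ1 plus PDGF at 2 h. At 24 h Ccl7 was at 261, 246 and 342 with PDGF and at 4.20, 4.70 and 5.57 with JQ1 plus PDGF. The Ccl7 groups were apart at both times and farther apart at 24 h (interaction -2.91 ± 0.25).

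Its neighbour in function, Ccl2, behaved differently. Its level was 205, 192 and 195 normalised FPKM with PDGF and 39.9, 21.3 and 31.3 with JQ1 plus PDGF at 2 h, then 96.4, 89.1 and 130 with PDGF and 28.5, 28.0 and 28.2 with JQ1 plus PDGF at 24 h. The Ccl2 gap was narrower at 24 h (interaction 0.84 ± 0.26, limma adjusted p = 0.028), and this call held in 12 of 20 alternatives. It was lost without PDGF 24 h replicate 0 or 1, PDGF 2 h replicate 0, JQ1 plus PDGF 24 h replicate 1 or 2, or JQ1 plus PDGF 2 h replicate 1. Cxcl12, a homeostatic chemokine, and Il1rl1, the receptor of interleukin 33, had interactions of -3.25 ± 0.22 and -2.77 ± 0.26. Il6 was lower at both times (-2.57 ± 0.32 at 2 h and -2.51 ± 0.32 at 24 h), and its interaction of 0.06 ± 0.46 was not called.

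Areg, which encodes the epidermal growth factor receptor ligand amphiregulin, turned from lower to higher. It was at 8.25, 10.6 and 11.4 normalised FPKM with PDGF and at 6.85, 3.54 and 7.12 with JQ1 plus PDGF at 2 h. At 24 h Areg was at 0.492, 1.29 and 0.502 with PDGF and at 7.50, 4.99 and 5.79 with JQ1 plus PDGF. With PDGF alone Areg was far lower at 24 h than at 2 h, whereas with JQ1 the ranges of the 2 times overlapped. The interaction was 2.76 ± 0.37.

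Of 42 transcription factors of smooth muscle state, 10 had a lower and 2 a higher interaction on both scales, against 17.5% and 4.82% of all tested genes. On the median-centred scale 10 were lower and 8 higher, and the median interaction was -0.29 (-0.07 on the median-centred scale). Smad6, an inhibitor of bone morphogenetic protein signals, was at 0.947, 0.618 and 1.12 normalised FPKM with PDGF and at 5.63, 8.43 and 11.5 with JQ1 plus PDGF at 2 h. At 24 h Smad6 was at 18.1, 14.6 and 14 with PDGF and at 8.52, 5.14 and 7.72 with JQ1 plus PDGF. The Smad6 levels with JQ1 overlapped between the 2 times, while those with PDGF alone did not, and the interaction was -3.33 ± 0.35. Snai2, a repressor linked to mesenchymal state, had an interaction of -1.81 ± 0.29. Klf4, a factor tied to loss of the contractile state, was higher with JQ1 at both times (0.76 ± 0.15 and 1.39 ± 0.15). Its interaction of 0.62 ± 0.21 (limma, adjusted p = 0.043) held in only 8 of 20 alternatives and was lost when any 1 library other than PDGF 24 h replicate 0 and PDGF 2 h replicate 1 was left out.

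**Figure D3:**
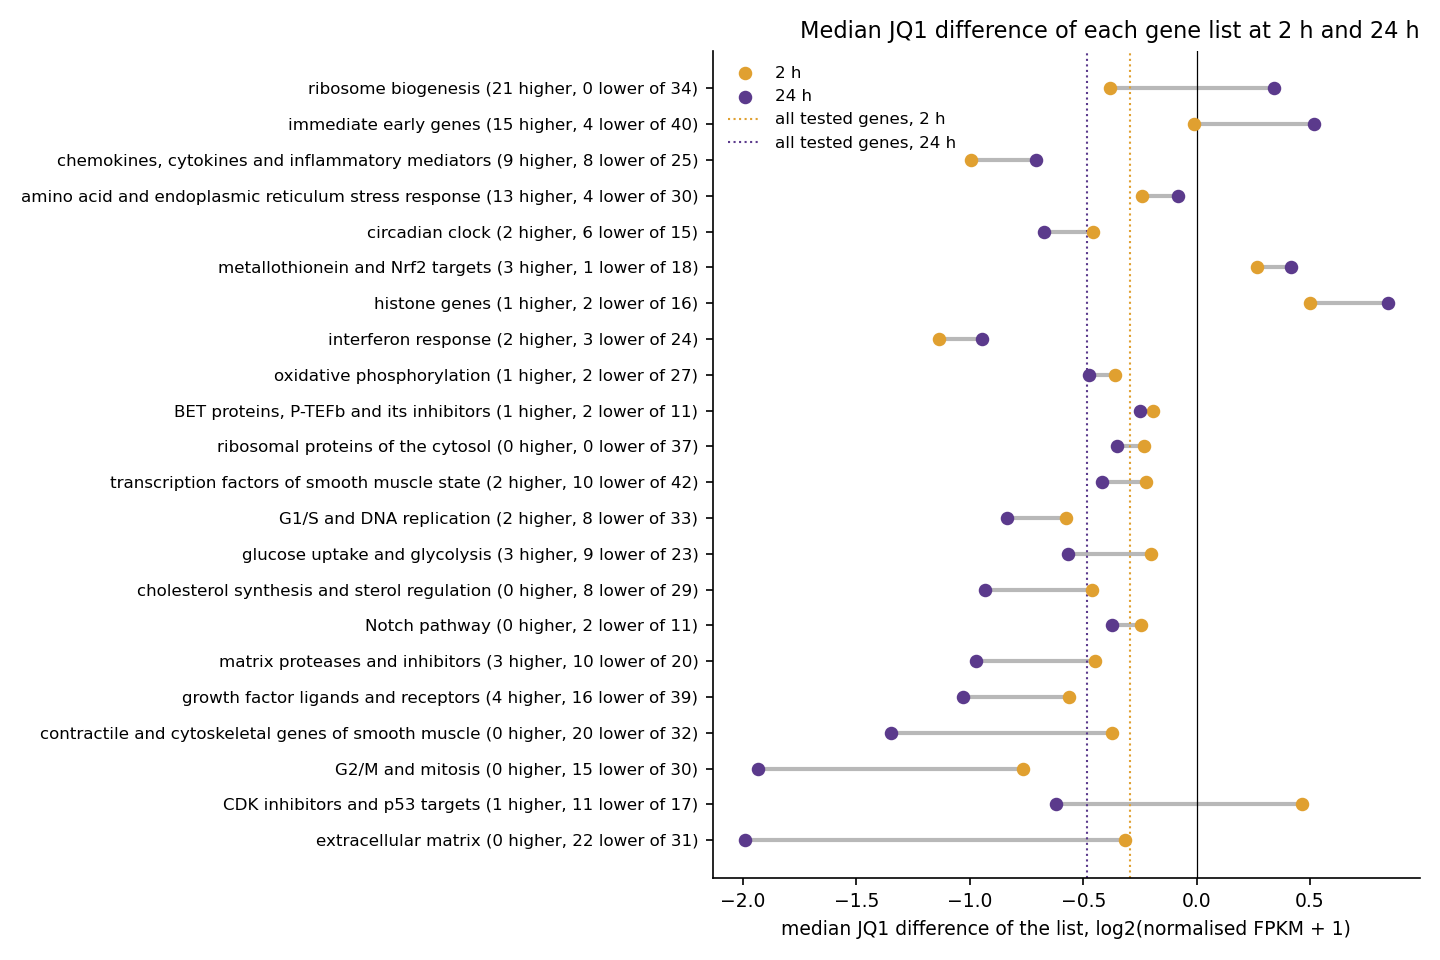
Median JQ1 difference of each gene list with at least 11 tested genes at 2 h (yellow) and 24 h (purple), in log2(normalised FPKM + 1); the dotted lines mark the medians of all tested genes, and the labels count called interactions. Matrix, G2/M and contractile genes moved to the left between the times. Ribosome biogenesis and immediate early genes crossed 0 to the right, and CDK inhibitors and p53 targets crossed 0 to the left.

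Ribosome biogenesis genes, which encode the nucleolar factors that make and process ribosomal RNA, had positive interactions. Of 34 tested, 21 were higher on both scales, against 4.82% among all genes, and 28 were higher on the median-centred scale. By limma 0 were lower on either scale, also at an unadjusted p under 0.05 on the spike-in scale. The median interaction was 0.70 (0.87 on the median-centred scale). At 2 h 18 were lower with JQ1 and 0 higher, and at 24 h 3 were lower and 7 higher, against 34% and 48.5% lower among all genes. On the median-centred scale 11 were lower and 2 higher at 2 h, and 31 were higher and 2 lower at 24 h, so the count of genes above their control at 24 h depends on the scale whereas the sign of the interaction does not.

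Nop2, a ribosomal RNA methyltransferase, was at 39.9, 61.0 and 50.7 normalised FPKM with PDGF and at 17.2, 19.9 and 21.8 with JQ1 plus PDGF at 2 h. At 24 h Nop2 was at 30.3, 34.8 and 42.8 with PDGF and at 50.4, 41.2 and 45.5 with JQ1 plus PDGF. The groups were apart at 2 h and overlapped at 24 h, and the interaction was 1.65 ± 0.23 (limma, adjusted p = 1.12e-04). Utp20, a component of the small subunit processome, had an interaction of 1.23 ± 0.25, and Nop58, a core protein of box C/D particles, one of 1.06 ± 0.19. Nolc1, a nucleolar phosphoprotein, was lower at 2 h (-0.61 ± 0.13) and higher at 24 h (0.44 ± 0.13). Myc, which encodes a transcription factor known to drive ribosome biogenesis genes, was at 86.6, 105 and 111 normalised FPKM with PDGF and at 96.2, 110 and 110 with JQ1 plus PDGF at 2 h. At 24 h Myc was at 40.8, 39.4 and 34.9 with PDGF and at 69.3, 53.2 and 57.4 with JQ1 plus PDGF. The Myc groups overlapped at 2 h, and those with JQ1 were higher at 24 h (0.62 ± 0.14). Its interaction of 0.55 ± 0.19 just missed the threshold (limma, adjusted p = 0.050) and was called on the median-centred scale (0.73, limma adjusted p = 3.81e-04).

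Promoters of the tested genes were read from RefSeq (assembly GRCr8, from 250 bases before to 50 after the start). Of 10133 genes, 8243 (81.3%) matched by symbol or, failing that, by a RefSeq synonym. A synonym match can give the promoter of another gene, as Aldh2 was matched to Aldh1a1. The motifs were searched on both strands, and none contains another: the E-box CACGTG, the AP-1 site TGACTCA, the cyclic AMP response element TGACGTCA, the GC box GGGCGG and the TATA box TATAAA. The E-box was in 9.66% of all tested promoters, in 17.2% of those with a higher interaction and in 7.76% of those with a lower one. In the ribosome biogenesis list 12 of 32 promoters held it (37.5%), and in the matrix list 0 of 19. These 2 lists were added to the motif search after their values were seen. The TATA box was in 6.58% of all promoters and in 10% of those with a higher interaction. The cyclic AMP response element was in 3.42% of all promoters, 4.78% of those with a higher interaction and 2.47% of those with a lower one. The GC box was in 64.6%, 58.6% and 70.5% in the same order. A match describes the letters of this window and is not a binding site.

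The upstream stretches of 5 ribosome biogenesis genes with a called positive interaction are printed to show where the E-box (in capitals) lies. Each is 5′ to 3′ on the strand of the gene and lies before its start. The genes were chosen for holding the motif, after their values were seen: Utp20 at chr7:25102934-25103013 (minus strand), Mybbp1a, a nucleolar Myb-binding protein, at chr10:57555265-57555344 (plus), Dkc1, the pseudouridine synthase dyskerin, at chrX:157751430-157751509 (plus), Pes1, of the large subunit maturation complex, at chr14:83074259-83074338 (plus), and Gnl3, nucleostemin, at chr16:6219783-6219862 (minus).
Utp20: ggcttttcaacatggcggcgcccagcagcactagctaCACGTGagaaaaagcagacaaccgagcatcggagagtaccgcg
Mybbp1a: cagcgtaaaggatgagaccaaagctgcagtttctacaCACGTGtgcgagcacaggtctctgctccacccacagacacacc
Dkc1: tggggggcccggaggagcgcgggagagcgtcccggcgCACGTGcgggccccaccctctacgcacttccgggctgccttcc
Pes1: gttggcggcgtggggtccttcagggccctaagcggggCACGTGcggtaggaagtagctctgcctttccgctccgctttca
Gnl3: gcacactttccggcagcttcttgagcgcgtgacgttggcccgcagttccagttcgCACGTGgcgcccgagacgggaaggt
Counted back from the start, the first base of the motif lies 127 bases upstream in Utp20, 156 in Mybbp1a, 184 in Dkc1, 50 in Pes1 and 25 in Gnl3. The interactions of these genes were 1.23 ± 0.25, 1.0 ± 0.20, 0.90 ± 0.20, 0.64 ± 0.17 and 0.70 ± 0.20 in the same order.

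Of 30 genes of the amino acid and endoplasmic reticulum stress response, 13 had a higher and 4 a lower interaction on both scales, against 4.82% and 17.5% of all tested genes, with a median of 0.25 (0.33 on the median-centred scale). Ddit3, which encodes the stress transcription factor CHOP, was at 52.0, 59.2 and 58.4 normalised FPKM with PDGF and at 101, 103 and 96.5 with JQ1 plus PDGF at 2 h. At 24 h Ddit3 was at 89.5, 91.0 and 84.4 with PDGF and at 671, 553 and 570 with JQ1 plus PDGF. JQ1 raised Ddit3 at both times without overlap, by 0.82 ± 0.10 and 2.74 ± 0.10, and the interaction was 1.92 ± 0.14 (limma, adjusted p = 2.36e-07).

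Chac1, a glutathione-degrading enzyme induced by the same pathway, was at 94.1, 86.2 and 117 normalised FPKM with PDGF and at 80.1, 102 and 87.4 with JQ1 plus PDGF at 2 h. At 24 h Chac1 was at 19.9, 17.4 and 18.7 with PDGF and at 85.9, 69.6 and 79.9 with JQ1 plus PDGF. The Chac1 ranges overlapped at 2 h and were apart at 24 h, and the interaction was 2.14 ± 0.20. Trib3, a pseudokinase that feeds back on CHOP, and Slc7a11, the cystine transporter, turned from lower to higher. The 4 genes with a lower interaction were Ddit4, an mTORC1 inhibitor, Xbp1, a transcription factor of the unfolded protein response, and the chaperones Hsp90b1 and Pdia4. They are named because they are few, after their values were seen.

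Of 40 immediate early genes, 13 were higher and 12 lower with JQ1 at 2 h, against 7.24% and 34% of all genes. At 24 h 22 were higher and 5 lower, against 4.61% and 48.5%. The interaction was higher in 15 and lower in 4 on both scales (4.82% and 17.5% of all genes), with 26 higher on the median-centred scale, and its median was 0.52 (0.70 on the median-centred scale). Atf3, a stress-responsive repressor of the ATF family, was at 51.3, 50 and 44.8 normalised FPKM with PDGF and at 57.5, 63.4 and 54.2 with JQ1 plus PDGF at 2 h. At 24 h Atf3 was at 0.965, 0.492 and 0.921 with PDGF and at 19.6, 15.6 and 18.8 with JQ1 plus PDGF. With PDGF alone Atf3 was near 1 at 24 h, while with JQ1 it remained well above that, and the interaction was 3.15 ± 0.22. Egr1, a zinc finger factor of the serum response, had differences of 0.42 ± 0.15 and 1.64 ± 0.15 and an interaction of 1.22 ± 0.21.

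The 4 immediate early genes with a lower interaction, Fos, Egr4, Klf2 and Arc, were higher with JQ1 at 2 h. Klf2, a factor of quiescence and shear stress, was at 3.46, 4.85 and 3.94 normalised FPKM with PDGF and at 30.4, 45.5 and 35.7 with JQ1 plus PDGF at 2 h. At 24 h Klf2 was at 9.36, 10.3 and 8.78 with PDGF and at 15.3, 16.5 and 15.2 with JQ1 plus PDGF. The Klf2 gap was present at both times and narrower at 24 h (interaction -2.23 ± 0.23). Arc, a gene best known from active neurons, was at 52.6, 66.8 and 66.3 with PDGF and at 256, 346 and 306 with JQ1 plus PDGF at 2 h, and the groups overlapped at 24 h (interaction -2.09 ± 0.31). Fos, the founding AP-1 subunit, had a difference of 1.51 ± 0.22 at 2 h and one of 0.26 ± 0.22 at 24 h, which was not called. Fosl1, another AP-1 subunit, was lower at both times, and its interaction of -0.31 ± 0.32 was not called.

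With microRNA loci, LOC and RGD identifiers and ribosomal RNA left out, the highest interaction called on both scales was in Plk5, which is in no list. Plk5, a polo-like kinase family member linked to cell cycle arrest, was at 0.660, 3.39 and 0.998 normalised FPKM with PDGF and at 0.728, 2.41 and 1.33 with JQ1 plus PDGF at 2 h. At 24 h Plk5 was at 0.334, 0.341 and 0.343 with PDGF and at 55.8, 46.8 and 45.1 with JQ1 plus PDGF. The Plk5 groups overlapped at 2 h and were far apart at 24 h, and the interaction was 5.25 ± 0.45 (limma, adjusted p = 1.01e-06).

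Arrdc2, an alpha-arrestin, was at 1.42, 3.14 and 1.60 normalised FPKM with PDGF and at 5.89, 7.68 and 6.30 with JQ1 plus PDGF at 2 h. At 24 h Arrdc2 was at 7.56, 6.43 and 4.44 with PDGF and at 143, 108 and 104 with JQ1 plus PDGF. Arrdc2 was higher with JQ1 at both times and more so at 24 h (interaction 2.72 ± 0.32). Tbxa2r, the receptor of thromboxane, which constricts smooth muscle, was not called at 2 h and was higher at 24 h (interaction 2.57 ± 0.33). Txnip, another alpha-arrestin, was higher at both times (1.11 ± 0.16 and 0.79 ± 0.16), and its interaction of -0.32 ± 0.23 was not called.

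Among the lowest interactions outside the lists were Sfrp2, a secreted Wnt modulator (-3.88 ± 0.43), and Cp, ceruloplasmin (-3.67 ± 0.33). Cp was at 1.79, 4.21 and 3.11 normalised FPKM with PDGF and at 1.28, 1.99 and 2.01 with JQ1 plus PDGF at 2 h. At 24 h Cp was at 41.9, 42.5 and 36.1 with PDGF and at 1.62, 1.31 and 0.918 with JQ1 plus PDGF. The rise of Cp between the times with PDGF was therefore not seen with JQ1. Ctsk, the collagenolytic protease cathepsin K (-4.14 ± 0.68), was listed at 0 in PDGF 2 h replicate 1, the library with the fewest genes above 0. Rpl37a had the most negative value of the genes ranked (-6.13 ± 1.72), but its libraries ranged from 8.68 to 81.6 normalised FPKM with PDGF at 2 h and from 3.13 to 111 with JQ1 plus PDGF at 24 h. It has near-identical copies, so its value is uncertain, and its call was lost without PDGF 24 h replicate 0, JQ1 plus PDGF 24 h replicate 0 or JQ1 plus PDGF 24 h replicate 2.

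Of the 164 genes with opposite JQ1 calls, 112 were higher at 2 h and lower at 24 h, and 52 were lower at 2 h and higher at 24 h. On the median-centred scale there were 352 such genes, 172 and 180 in the same order, so the excess of the first kind was absent there. The 58 genes with opposite calls on both scales divided into 30 and 28. The genes described next are among these 58.

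**Figure D4:**
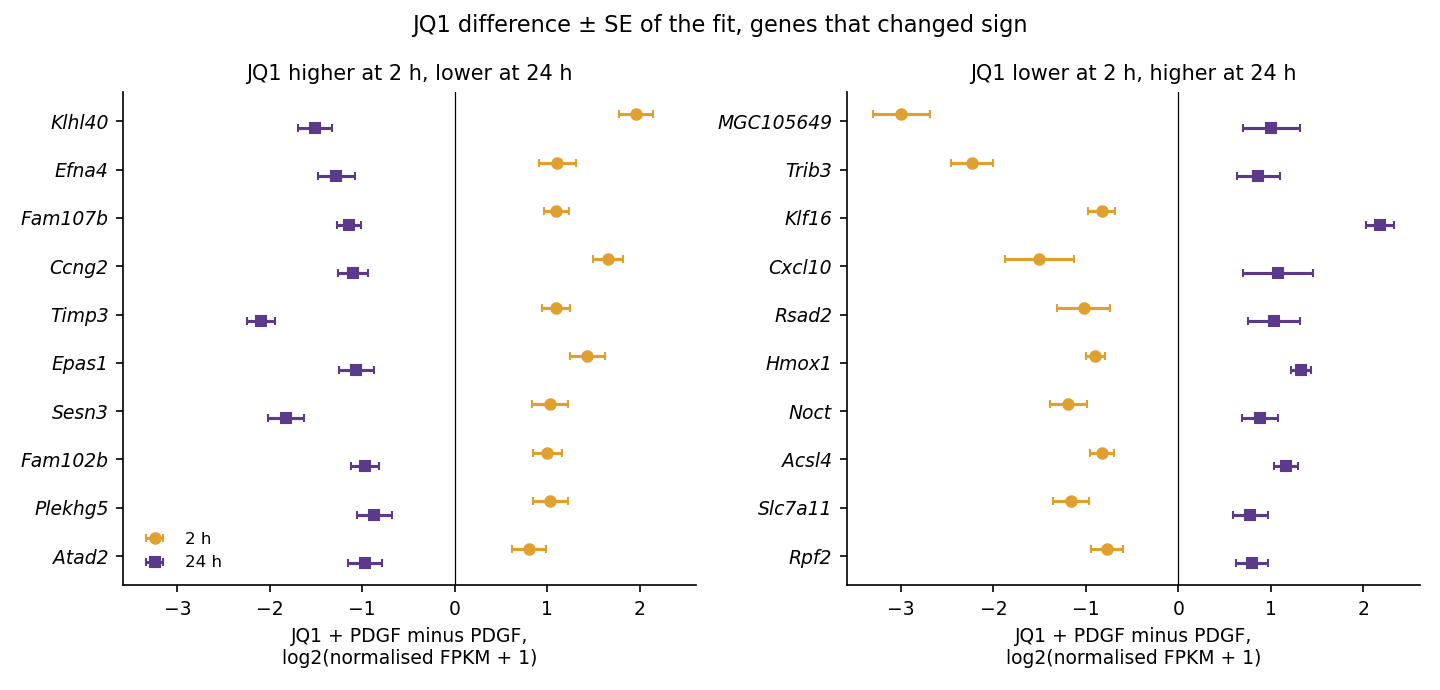
JQ1 difference (log2 of normalised FPKM + 1, points with the SE of the fit) at 2 h (circles) and 24 h (squares) for 10 genes of each orientation whose calls were opposite on both scales. By this choice every pair lies on both sides of 0, from Klhl40 (1.96 and -1.51) to Klf16 (-0.83 and 2.18).

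Timp3 is a gene of the first orientation, higher at 2 h and lower at 24 h. It was at 101, 134 and 141 normalised FPKM with PDGF and at 235, 282 and 282 with JQ1 plus PDGF at 2 h. At 24 h Timp3 was at 55.9, 68.8 and 63.8 with PDGF and at 17.1, 12.5 and 12.6 with JQ1 plus PDGF. The order of the groups reversed without overlap at either time, and the difference went from 1.09 ± 0.15 to -2.09 ± 0.15.

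Klhl40, which encodes a kelch protein known from striated muscle, was at 9.56, 14.7 and 13.5 normalised FPKM with PDGF and at 48.2, 53.8 and 51.5 with JQ1 plus PDGF at 2 h. At 24 h Klhl40 was at 9.71, 7.80 and 7.85 with PDGF and at 2.75, 2.07 and 2.11 with JQ1 plus PDGF. With PDGF alone Klhl40 differed by -0.51 ± 0.18 between the times, whereas the libraries with JQ1 went from the highest to the lowest of the 4 groups. Ccng2, an atypical cyclin of quiescent cells, rose between the times with PDGF, from 2.83, 3.11 and 2.62 to 29.8, 33.2 and 30.5. With JQ1 it was at 9.41, 14 and 10.5 at 2 h and at 15.9, 12 and 14.4 at 24 h, above its control at the first time and below it at the second. Sesn3, a sestrin induced by FoxO factors (1.03 ± 0.19 and -1.82 ± 0.19), and Epas1, which encodes the hypoxia factor HIF-2 alpha (1.43 ± 0.19 and -1.06 ± 0.19), showed the same order. So did Efna4, an ephrin ligand (1.11 ± 0.20 and -1.28 ± 0.20), and Atad2, a bromodomain ATPase outside the BET family (0.80 ± 0.18 and -0.97 ± 0.18).

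The AP-1 letters were in 3.34% of all tested promoters, 4.55% of those with a higher interaction and 3.31% of those with a lower one. Among genes with opposite calls on both scales, 7 of 46 promoters (15.2%) held them. In these 46 the E-box was in 13%, the TATA box in 13%, the GC box in 67.4% and the cyclic AMP response element in 2.17%. The respective shares of all tested promoters were 9.66%, 6.58%, 64.6% and 3.42%. Klhl40 held the AP-1 letters at 2 places. The stretch nearer the start, at chr8:130318676-130318755 of GRCr8 (plus strand), is shown with the reverse complement of the motif in capitals.
Klhl40: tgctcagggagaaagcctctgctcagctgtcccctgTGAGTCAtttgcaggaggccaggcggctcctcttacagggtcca
The first base of this match lies 81 bases before the start.

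Hmox1 is a gene of the second orientation, lower at 2 h and higher at 24 h, and encodes heme oxygenase 1, an enzyme of the oxidative stress response. It was at 246, 238 and 247 normalised FPKM with PDGF and at 138, 118 and 137 with JQ1 plus PDGF at 2 h. At 24 h Hmox1 was at 64.4, 57.9 and 56.0 with PDGF and at 163, 140 and 149 with JQ1 plus PDGF. With JQ1 the Hmox1 time change was 0.21 ± 0.10 and was not called, against -2.02 ± 0.10 with PDGF alone. Trib3 followed the same order of groups, at 35.5, 36.7 and 38.9 with PDGF and 11.2, 4.88 and 6.37 with JQ1 plus PDGF at 2 h. At 24 h Trib3 was at 15.7, 13.4 and 11.2 with PDGF and at 32.4, 21.3 and 22.8 with JQ1 plus PDGF. Klf16, a GC-box binding factor, differed by -0.83 ± 0.15 and 2.18 ± 0.15 at the 2 times, and Acsl4, an acyl-CoA synthetase of polyunsaturated fatty acids, by -0.83 ± 0.13 and 1.16 ± 0.13. Noct, a circadian phosphatase, differed by -1.19 ± 0.20 and 0.88 ± 0.20.

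Cxcl10 and Rsad2, genes of the interferon response, were of this orientation with low levels at 24 h. Cxcl10 was at 40.1, 30.9 and 33.0 normalised FPKM with PDGF and at 14.3, 11 and 9.61 with JQ1 plus PDGF at 2 h. At 24 h Cxcl10 was at 7.72, 0.995 and 2.31 with PDGF and at 5.42, 8.63 and 7.77 with JQ1 plus PDGF, and these ranges overlapped. Rsad2 was under 3 normalised FPKM in every library. Rpf2, a factor of 5S particle assembly, was at 44.7, 60.1 and 51.0 with PDGF and at 31.6, 36.0 and 23.3 with JQ1 plus PDGF at 2 h. At 24 h Rpf2 was at 38.5, 31.6 and 43.9 with PDGF and at 75.4, 66.2 and 57.9 with JQ1 plus PDGF, so the order of its groups reversed without overlap.

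Of 37 cytosolic ribosomal protein genes, 0 were called in either direction by limma (0 higher and 2 lower at an unadjusted p under 0.05), 1 was higher and 1 lower on the median-centred scale, and the median interaction was -0.12 (0.01 on the median-centred scale). Of 27 genes of oxidative phosphorylation, 1 was higher and 2 lower, against 4.82% and 17.5% of all tested genes, while the median-centred scale gave 5 higher and 1 lower. Of 11 genes of the BET and P-TEFb list, 1 was higher and 2 were lower, against the same 4.82% and 17.5% of all tested genes. The median-centred scale gave 2 higher and 1 lower, and the list's median was -0.11 (0.08 on the median-centred scale). Brd2 was at 1.02, 1.41 and 1.41 normalised FPKM with PDGF and at 2.27, 4.97 and 2.75 with JQ1 plus PDGF at 2 h. At 24 h Brd2 was at 1.11, 0.876 and 0.880 with PDGF and at 7.77, 5.99 and 6.75 with JQ1 plus PDGF. JQ1 raised Brd2 at both times, and the interaction of 1.12 ± 0.34 was lost when any of 7 libraries was left out (PDGF 24 h replicate 1 or 2, PDGF 2 h replicate 2, JQ1 plus PDGF 24 h replicate 0 or 2, JQ1 plus PDGF 2 h replicate 0 or 2). Brd3, another BET protein gene, had an interaction of -1.02 ± 0.23.

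Other markers moved with JQ1 at both times. The 12 endothelial markers summed to 116.9 to 141.1 unnormalised FPKM with PDGF and 54.99 to 57.4 with JQ1 plus PDGF at 2 h, and to 109.6 to 124.4 and 30.78 to 37.95 at 24 h. Of the 4 tested, Eng, a coreceptor of transforming growth factor beta, and Tek, the angiopoietin receptor, had a lower interaction, against 17.5% of all tested genes. The Tek call was lost with equal library medians and without PDGF 24 h replicate 0 or 1, JQ1 plus PDGF 24 h replicate 1 or 2, or JQ1 plus PDGF 2 h replicate 1. Tek was listed at 0 in PDGF 2 h replicates 0 and 1 and in JQ1 plus PDGF 2 h replicates 0 and 2. The 10 leukocyte markers summed to 17.86 to 22.89 and 6.721 to 11.92 at 2 h, and to 36.94 to 53.05 and 9.568 to 17.3 at 24 h. Cd14 had a lower and Cd68 a higher interaction, the only leukocyte markers tested, against 17.5% lower and 4.82% higher among all tested genes. Whether such cells contributed to any interaction was not tested.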

How the data were processed

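RNA was sequenced in 14 libraries of rat aortic smooth muscle cells as 40 base single ends of polyadenylated RNA with ERCC spike-ins, per the labels' protocols. The authors deposited unnormalised and normalised FPKM, made with HISAT and Cufflinks 2.0.0 on rn6, per the submitters' processing notes; the annotation and the normalisation method are not given in the sources used here. From the values, the normalisation brings spike-ins together with a curve per library. Columns were grouped by name, and 0 columns had no group.

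The 92 spike-in rows were left out. Genes with at least 1 normalised FPKM in at least 2 libraries (10133) were fitted with limma 3.58.1 (R 4.3.3) on log2(normalised FPKM + 1), 1 model over 5 groups with 9 residual degrees of freedom and empirical Bayes with a mean trend. The unstimulated pair entered only through the spread. Count models need read counts and were not run on these FPKM, and the depth behind a value is unknown. The code was tested on simulated data.

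Alternatives changed the scale, the pseudocount, the filter, the moderation and the libraries. Named genes were the 12 highest and 12 lowest interactions called on both scales, up to 10 genes of each sign change on both scales, up to 4 called members of each of 25 lists, and a set of fixed genes; not all are printed, and some are not reported here. Rows without a gene symbol, microRNA loci, LOC and RGD identifiers and ribosomal RNA were left out when the highest, lowest and sign-changing genes were named. The lists hold 683 genes, of which 657 were in the table and 586 were tested. The comparison, the lists and the named genes were chosen with earlier results of these data known.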

Additional observations from a re-analysis of the deposited data

Results flagged for a closer look

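In 20 genes the JQ1 differences at 2 h and 24 h had opposite signs, each called by limma, and the interaction between them was called on both scales. They are the named members of the 58 genes with that pattern, chosen for the size of the smaller of the 2 differences. Calls on both scales were part of that choice, and the median-centred scale is among the alternatives. Separation of the groups and persistence of the call are therefore partly fixed by the choice. The values are the JQ1 difference at 24 h minus that at 2 h, in log2(normalised FPKM + 1).

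With levels higher at 2 h and lower at 24 h, the interaction was -3.47 in Klhl40, -3.19 in Timp3, -2.86 in Sesn3, -2.76 in Ccng2 and -2.50 in Epas1. It was -2.39 in Efna4, -2.24 in Fam107b, -1.98 in Fam102b, -1.90 in Plekhg5 and -1.77 in Atad2. In these 10 genes the 3 libraries with JQ1 lay above their controls at 2 h and below them at 24 h, without overlap, and the call held in 20 of 20 alternatives.

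With levels lower at 2 h and higher at 24 h, the interaction was 4.0 in MGC105649, 3.10 in Trib3, 3.01 in Klf16, 2.58 in Cxcl10 and 2.23 in Hmox1. It was 2.07 in Noct, 2.06 in Rsad2, 1.99 in Acsl4, 1.94 in Slc7a11 and 1.57 in Rpf2. Of these 10, Cxcl10 had overlapping groups at 24 h. MGC105649 was listed at 0 in JQ1 plus PDGF 2 h replicate 0 and Rsad2 in JQ1 plus PDGF 2 h replicate 2. The calls of Rsad2 and Slc7a11 held in all 19 alternatives that tested them, and those of the other 8 in all 20.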

How the results depend on the processing

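Genes called higher numbered 488 on the spike-in scale, 1343 on the median-centred scale, 1424 with equal library medians and 1290 on the median-centred scale with a pseudocount of 0.1; the last was chosen after seeing the data. Opposite calls numbered 164, 352, 327 and 331 in the same order. These counts moved most with the scale, whereas lower genes (1771) numbered 1299 without JQ1 plus PDGF 24 h replicate 1 and 1375 with equal library medians. Leaving out 1 library at a time gave 358 to 630 higher genes, 1299 to 2067 lower genes, 114 to 185 opposite calls and a median interaction of -0.31 to -0.14. Of the 2259 calls, 1252 (272 higher, 980 lower) were made with the same sign under all 20 alternatives listed from the start. Without both PDGF 2 h replicate 1 and PDGF 24 h replicate 0, 443 genes were higher and 1767 lower. Among inflammatory genes 5 rather than 9 were higher with a pseudocount of 0.1 and a mean of at least 5 (chosen after seeing the data). No paired analysis was possible because the table columns carry digits that no label ties to the letters of the sample titles. Depth is unknown, exact zeros may be failed estimates, and 25 called genes were listed at 0 in every library of a group.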

Other observations

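The lists not described above are read against interactions of 4.82% higher and 17.5% lower among all tested genes. Of 15 circadian clock genes 6 had a lower and 2 a higher interaction, while the list's median was 0.17. The clock output genes Dbp (-1.13 ± 0.25) and Tef (-1.25 ± 0.24) were among the lower ones, as was the Period family gene Per3 (-1.52 ± 0.39). Dbp was at 4.82, 6.31 and 4.30 normalised FPKM with PDGF at 2 h and at 43.1, 47.8 and 40.5 at 24 h, against 3.17, 2.68 and 3.92 and then 16.2, 11.7 and 12.1 with JQ1. Of 29 genes of cholesterol synthesis and sterol regulation, 8 were lower (7 on both scales) and 0 higher by limma (0 at an unadjusted p under 0.05, 1 on the median-centred scale). The lower ones included Pmvk, which encodes phosphomevalonate kinase (-1.22 ± 0.22). Of 23 genes of glucose uptake and glycolysis, 9 were lower and 3 higher, among them the muscle phosphofructokinase gene Pfkm (-1.42 ± 0.20).

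Of 24 interferon response genes, 20 were lower with JQ1 at 2 h and 17 at 24 h, against 34% and 48.5% of all genes. The interaction was higher in 2 and lower in 3. Gbp2, an interferon-induced GTPase, had the largest decrease of the list (-2.62 ± 0.21). Of 18 metallothionein and Nrf2 target genes, 8 were higher with JQ1 at each time, against 7.24% of all genes at 2 h and 4.61% at 24 h. Of the same 18 genes, 3 had a higher and 1 a lower interaction. Srxn1, sulfiredoxin, was at 335, 388 and 420 normalised FPKM with PDGF and 741, 819 and 843 with JQ1 plus PDGF at 2 h. At 24 h it was at 16.8, 13.9 and 16.5 with PDGF and at 94.0, 70.3 and 83.7 with JQ1 plus PDGF (interaction 1.24 ± 0.20). Of 16 histone genes, 7 were higher with JQ1 at 2 h and 10 at 24 h (7.24% and 4.61% of all genes), with 1 higher and 2 lower interactions. Reads from polyadenylated RNA cover only part of histone transcripts, and histone genes have near-identical copies. Of 11 Notch pathway genes, Notch3 (-1.68 ± 0.27) and Lfng (-1.60 ± 0.25) had a lower interaction. Lfng, a glycosyltransferase that modifies Notch, was higher with JQ1 at 2 h (1.85 ± 0.17) and not called at 24 h, whereas the receptor gene Notch3 was lower at both times.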
